A study of Mus musculus with 180 samples.

Results

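Endothelial-type genes were followed cell by cell in blood stem and progenitor cells of the mouse. The 10 genes were Sox17, Sox18, Esam, Cdh5, Emcn, Eng, Kdr, Tie1, Tek and Pecam1, of 14825 genes listed in the expression table, and all 10 were listed. On build GRCm38 they lie on chromosomes 1 (Sox17), 2 (Sox18 and Eng), 3 (Emcn), 4 (Tie1 and Tek), 5 (Kdr), 8 (Cdh5), 9 (Esam) and 11 (Pecam1), so Tie1 and Tek or Sox18 and Eng share a chromosome but no locus. They were selected by name from the table, with earlier results of the same cells known, so their levels below are a description and were not tested. The study asked what Hoxb5 does in multipotent progenitors (MPP), and compared the cells that Hoxb5-expressing MPP gave rise to with natural progenitors and stem cells. RNA was measured in 180 single cells, each a library of its own made from 1 sorted cell, as TPM (a transcript level corrected for gene length and scaled to the same total in each cell).

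All 4 populations came from mice of the C57BL/6 strain. BM HSC were 36 haematopoietic stem cells from the bone marrow of 8-week-old Rosa LSL-Hoxb5-EGFP/+ mice, which carry a Hoxb5 and EGFP cassette behind a stop sequence but no Cre. WT-MPP were 41 MPP from the bone marrow of mice of the same genotype and age. FL HSC were 56 fetal liver stem cells of the same genotype of embryonic Day14.5, gated as CD45.2+, lineage negative, Sca1+, c-Kit+, CD11b+ and CD150+. One tissue label of these cells reads bone marrow, whereas their cell type label reads fetal liver. CD11b+CD48+SK cells were 47 donor-derived Sca1+ c-Kit+ cells that carried CD11b (also called Mac1) and CD48, sorted from the marrow of primary recipients 8 weeks after transplantation. Their donors were Mx1cre/Rosa LSL-Hoxb5-EGFP/+ mice, so Cre was driven by the interferon-inducible Mx1 promoter and induced with pIpC. These cells alone had passed through an irradiated host and pIpC treatment, and Hoxb5 expression cannot be told apart from either in any comparison that includes them. No label tied a cell to an animal, so each population counted as 1 sample. The SDs and intervals below therefore cover cells only, and no p-value was computed between populations.

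Endothelium lines blood vessels, and the first blood stem cells of the embryo arise from a specialised part of it. Blood stem cells keep many of its surface proteins, and several of them, among them ESAM, endomucin, endoglin and the angiopoietin receptor TIE2, have been used to enrich stem cells by flow cytometry. The transcription factors SOX17 and SOX18 belong to the SoxF group, which acts in vessel formation, and SOX17 is also known for its part in fetal blood stem cells.

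The promoters of Eng, Emcn and Tek are shown because these members were present in more than a few cells and had a RefSeq promoter window that lay largely before the annotated gene. Capitals mark GGAAG or CTTCC, the core letters of ETS factor sites on either strand, and ACAAT or ATTGT, letters found in many SOX factor sites. All are from build GRCm38.p6, on the plus strand, from 5′ to 3′, and end at the last base before the gene. Eng lies at chr2:32646345-32646594, Emcn at chr3:137340828-137341066 and Tek at chr4:94739039-94739288.
Eng: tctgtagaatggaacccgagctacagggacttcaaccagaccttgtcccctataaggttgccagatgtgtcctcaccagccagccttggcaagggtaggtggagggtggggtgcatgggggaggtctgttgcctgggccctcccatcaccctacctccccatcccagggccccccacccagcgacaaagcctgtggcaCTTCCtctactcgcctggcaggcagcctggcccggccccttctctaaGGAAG
Emcn: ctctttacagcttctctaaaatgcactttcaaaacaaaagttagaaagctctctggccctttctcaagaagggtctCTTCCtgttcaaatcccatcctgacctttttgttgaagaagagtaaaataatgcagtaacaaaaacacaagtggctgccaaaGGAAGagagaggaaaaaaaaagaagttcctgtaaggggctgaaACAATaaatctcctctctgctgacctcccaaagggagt
Tek: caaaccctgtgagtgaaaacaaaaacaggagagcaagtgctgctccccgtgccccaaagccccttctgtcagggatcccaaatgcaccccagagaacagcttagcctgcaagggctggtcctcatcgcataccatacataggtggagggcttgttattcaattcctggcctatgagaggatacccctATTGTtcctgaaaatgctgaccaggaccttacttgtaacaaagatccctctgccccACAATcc
The Eng window held 2 ETS cores and no SOX core. Emcn held 2 ETS cores and 1 SOX core, and Tek held no ETS core and 2 SOX cores. None of the 3 windows held GATAA or TTATC, the core letters of a GATA site. Of 32851 RefSeq mouse promoter windows, 64.1% held the ETS letters, 27.7% the SOX letters and 22.6% the GATA letters, so such matches are common and are no evidence of binding.

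The cells differed in how many genes were seen. A gene counted as present at 1 TPM or more, and the median number of present genes per cell was 4441.5 in BM HSC, 3844 in WT-MPP, 5206.5 in FL HSC and 4514 in CD11b+CD48+SK cells. Values between 0 and 1 TPM numbered 1445.5 and 1392 per cell (medians) in BM HSC and WT-MPP, against 699 in each of the other 2 populations. Read depth cannot be recovered from TPM, and no 2 cells held identical values. Only 1 gene, the pseudogene Pisd-ps3, was present in all 56 FL HSC and at 0 in the 124 other cells. No gene showed this for another population. By a weaker measure, H2-Q7 was present in 10% or less of FL HSC and in 90% or more of each other population. Cst7 was present in 90% or more of CD11b+CD48+SK cells and in 10% or less of each other population. In level, Gm5506 had a mean of 588 TPM in FL HSC and 49.1 to 56.8 TPM in the other populations. Whether a difference in preparation or processing of the FL HSC libraries touches their values of the 10 genes was not tested. Every cell held at least 5 of 10 haematopoietic identity markers such as Ptprc, Runx1 and Kit, and the median was 9, 8, 9 and 9 in BM HSC, WT-MPP, FL HSC and CD11b+CD48+SK cells.

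Markers that define endothelium were few per cell, with a median of 1 in FL HSC and 0 in each other population. Of 12 such markers, chosen without any of the 10 genes, 10 were listed in the table. BM HSC held 4 of them in any cell, WT-MPP 3, FL HSC 8 and CD11b+CD48+SK cells 3. Their summed level per cell ranged from 0 to 228 TPM in BM HSC, from 0 to 275 in WT-MPP, from 0 to 808 in FL HSC and from 0 to 274 in CD11b+CD48+SK cells. Ecscr, an endothelial surface regulator, was present in 13 of 36 BM HSC, 9 of 41 WT-MPP, 48 of 56 FL HSC and 5 of 47 CD11b+CD48+SK cells. Plvap, a protein of endothelial fenestrae, was present in 1, 1, 16 and 11 cells in that order. Cldn5, a tight-junction protein of endothelium, was seen in 4 FL HSC alone, and Sox7, the third SoxF gene, was below 1 TPM in every cell. Flt4, Stab2, Aplnr and Ptprb were likewise below 1 TPM in every cell other than FL HSC. Lyve1 went the other way, present in 1 BM HSC at 104 TPM and at 0 in every other cell, FL HSC included. Nos3 was seen in each of the 4 populations. At least 2 of the markers occurred together in 0 BM HSC, 1 WT-MPP, 20 FL HSC and 1 CD11b+CD48+SK cell. With Ecscr left out, this held for 5 FL HSC and 0 cells of each other population.

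**Figure D1:**
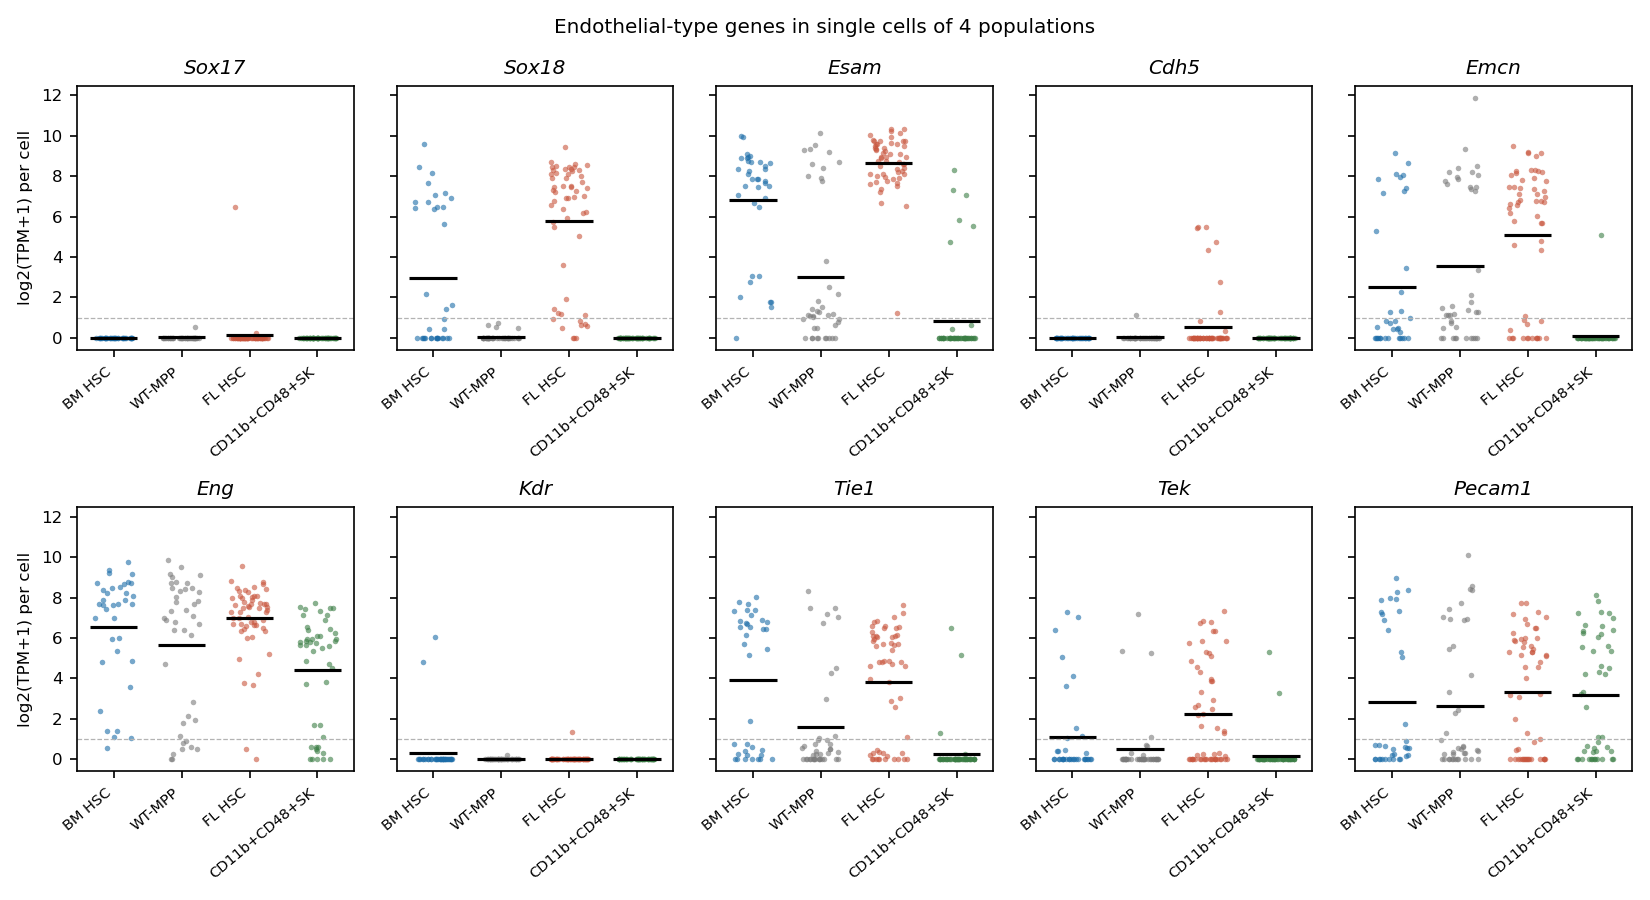
Level of each of the 10 genes in each cell, as log2(TPM+1), by population (36 BM HSC, 41 WT-MPP, 56 FL HSC and 47 CD11b+CD48+SK cells). Each point is 1 cell, the black bar is the mean over cells and the dashed line is 1 TPM. Sox18 was at or above the line in BM HSC and FL HSC alone, and Eng and Pecam1 were the members most often above it in CD11b+CD48+SK cells.

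Of the SoxF factors, Sox18 was present in stem cells of both ages and in no WT-MPP or CD11b+CD48+SK cell. In BM HSC it ranged from 0 to 771 TPM with a median of 0.621, and 17 of 36 cells held it (47.2%, 95% exact Clopper-Pearson interval 30.4 to 64.5). FL HSC ranged from 0 to 688 TPM with a median of 139, and 47 of 56 held it (83.9%, interval 71.7 to 92.4). None of 41 WT-MPP reached 1 TPM, and the highest value was 0.641 TPM. Every one of the 47 CD11b+CD48+SK cells was at 0. With 3 cells as the limit, these counts of 0 allow a share of up to 7.32% in WT-MPP and 6.38% in CD11b+CD48+SK cells. The exact intervals end at 8.60% and 7.55%. The ranges of all 4 populations still overlapped, because 16 BM HSC and 3 FL HSC were at 0 as well. Mean log2(TPM+1) was 2.97 ± 3.46 (SD over 36 cells) in BM HSC, 0.06 ± 0.18 (41 cells) in WT-MPP and 5.76 ± 3.07 (56 cells) in FL HSC.

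Sox17 was found in 1 of the 180 cells. That cell was an FL HSC at 86.5 TPM, and no other cell exceeded 0.434 TPM. It held 7 of the 10 genes and 9 of the 10 haematopoietic identity markers, and also Cldn5, Plvap and Ecscr of the endothelial markers. The 0 of 36 BM HSC allow a share of up to 8.33%.

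Esam, an adhesion molecule of endothelial junctions, was the highest of the 10 genes in both stem cell populations. In FL HSC it ranged from 1.301 to 1310 TPM with a median of 485, and all 56 cells held it (100%, interval 93.6 to 100). In BM HSC the range was 0 to 1032 TPM with a median of 232, and 35 of 36 cells held it. WT-MPP ranged from 0 to 1136 TPM with a median of 1.18, and 25 of 41 held it (61.0%, interval 44.5 to 75.8). Of these 25 WT-MPP, 13 were below 10 TPM, so the cells that held Esam had a median of 4.69 TPM there against 233 in BM HSC. The CD11b+CD48+SK cells ranged from 0 to 313 TPM with a median of 0, and 6 of 47 held it (12.8%, interval 4.83 to 25.7). Those 6 cells lay between 25.6 and 313 TPM, each with 1 to 3 of the 10 genes, 7 to 10 haematopoietic identity markers and none of the endothelial markers. The share of cells with Esam was thus high in both stem cell populations, intermediate in WT-MPP and low in CD11b+CD48+SK cells, while the ranges of TPM overlapped in all 4.

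Cdh5, which encodes VE-cadherin of endothelial adherens junctions, was almost confined to fetal cells. It was present in 7 of 56 FL HSC at 1.46 to 44.4 TPM, in 1 WT-MPP at 1.18 TPM, and in 0 BM HSC and 0 CD11b+CD48+SK cells. The 7 FL HSC held 5 to 8 of the 10 genes, 7 to 10 haematopoietic identity markers and 0 to 4 endothelial markers. All 3 cells with 8 of the 10 genes, the most in any cell, were among them.

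Emcn, the sialoglycoprotein endomucin, departed from the pattern of Sox18 and Esam in that it was seen more often in WT-MPP than in BM HSC. BM HSC ranged from 0 to 573 TPM with a median of 0.561, and 14 of 36 held it (38.9%, interval 23.1 to 56.5). WT-MPP ranged from 0 to 3749 TPM with a median of 1.56, and 27 of 41 held it (65.9%, interval 49.4 to 79.9). FL HSC ranged from 0 to 721 TPM with a median of 101, and 40 of 56 held it (71.4%, interval 57.8 to 82.7). Among the WT-MPP, 12 of the 27 were below 10 TPM, and counted at 10 TPM or more the shares came to 36.6% in WT-MPP and 30.6% in BM HSC. A single CD11b+CD48+SK cell of 47 held Emcn, at 33.3 TPM (2.13%, interval 0.0539 to 11.3), and that cell also held Plvap and Ecscr.

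Pecam1, an adhesion receptor of endothelium, platelets and leukocytes, was present in 38.9 to 60.7% of the cells of each population. BM HSC ranged from 0 to 508 TPM with a median of 0.541, and WT-MPP from 0 to 1124 TPM with a median of 0.492. In FL HSC the range was 0 to 215 TPM with a median of 18.8, and in CD11b+CD48+SK cells 0 to 281 TPM with a median of 8.42. Present cells numbered 14 of 36, 17 of 41, 34 of 56 and 27 of 47 in that order, and all 4 ranges and all 4 intervals overlapped.

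Eng, or endoglin, a co-receptor for BMP9 and TGF-beta, was the most widely held member. It ranged from 0.471 to 863 TPM in BM HSC with a median of 206, and 35 of 36 cells held it. WT-MPP ranged from 0 to 933 TPM with a median of 129, and 33 of 41 held it. FL HSC ranged from 0 to 763 TPM with a median of 172, and 54 of 56 held it. In CD11b+CD48+SK cells Eng reached at most 211 TPM, with a median of 49.8, and 36 of 47 held it (76.6%, interval 62.0 to 87.7). The share of these cells lay close to the 80.5% of WT-MPP, while the median of the cells that held Eng was 58.7 TPM against 202.

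Tie1 and Tek encode the receptor tyrosine kinases TIE1 and TIE2, of which TIE2 binds the angiopoietins. Tie1 ranged from 0 to 261 TPM in BM HSC with a median of 47.2, from 0 to 317 in WT-MPP with a median of 0.262, from 0 to 197 in FL HSC with a median of 27.1 and from 0 to 88.7 in CD11b+CD48+SK cells with a median of 0. It was present in 21 of 36 BM HSC, 11 of 41 WT-MPP, 39 of 56 FL HSC and 3 of 47 CD11b+CD48+SK cells. The 3 CD11b+CD48+SK cells were 6.38% (interval 1.34 to 17.5). The interval of WT-MPP, 14.2 to 42.9, overlapped it, and those of BM HSC, 40.8 to 74.5, and FL HSC, 55.9 to 81.2, lay above it. Each population was 1 sample, so these intervals cover the counting of cells only and are no test between populations.

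Tek was lower than Tie1 in mean TPM in every population. It ranged from 0 to 158 TPM in BM HSC, from 0 to 143 in WT-MPP, from 0 to 159 in FL HSC and from 0 to 39.3 in CD11b+CD48+SK cells. The median was 1.55 TPM in FL HSC and 0 in each of the other 3. Cells that held it numbered 9, 4, 29 and 2 in the order BM HSC, WT-MPP, FL HSC and CD11b+CD48+SK, so that FL HSC alone had it in more than 50% of cells (51.8%, interval 38.03 to 65.3).

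Kdr, the main VEGF receptor of endothelium, was present in 3 cells in all. These were 2 BM HSC at 27.3 and 64.5 TPM, with 7 and 6 of the 10 genes, and 1 FL HSC at 1.53 TPM. No WT-MPP and no CD11b+CD48+SK cell reached 1 TPM.

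**Figure D2:**
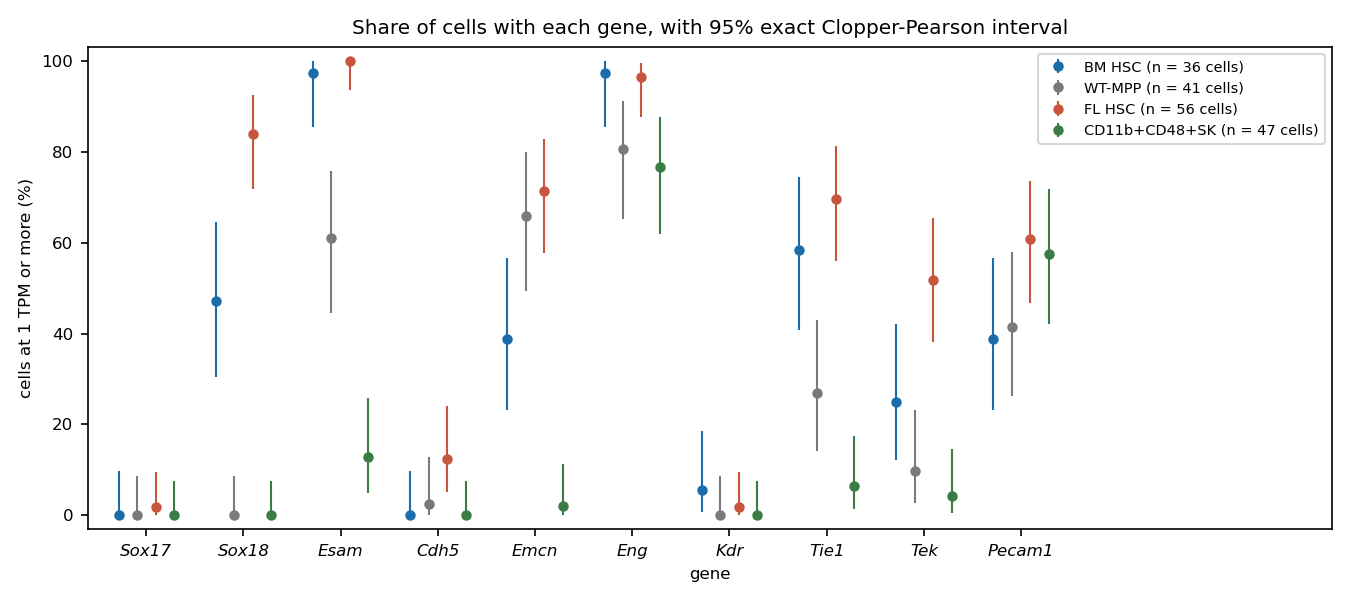
Share of cells at 1 TPM or more for each gene, in percent, with the 95% exact Clopper-Pearson interval (counting of cells only). Colours are the 4 populations, with 36, 41, 56 and 47 cells. Esam ran from 100% of FL HSC to 12.8% of CD11b+CD48+SK cells, whereas the intervals of Pecam1 overlapped in all 4.

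The order of mean TPM within a population, a level that can be compared between genes because TPM corrects for length, differed between them. Esam led, with 275 TPM in adult and 530 TPM in fetal stem cells. Eng led at 205 TPM in WT-MPP and 58.6 TPM in CD11b+CD48+SK cells, where Pecam1 followed at 41.8 TPM and Esam at 15.6 TPM. In BM HSC, Sox18 at 72.5 TPM was next to Pecam1 at 72.7, Emcn at 69.8 and Tie1 at 67.5 TPM, 4 values that differed by far less than the spread of each gene over cells.

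The populations were then compared by the difference of mean log2(TPM+1) over cells, with a difference of 1 or more counted as higher or lower. For all genes the background was the 10856 genes seen at 1 TPM or more in 10% or more of some population. Of the 10 genes 8 passed this filter, Sox17 and Kdr did not, and Cdh5 passed only through FL HSC. Because a gene passes through the population in which it is high, the counts describe the genes and support nothing about them. The comparisons share populations, so they are not independent of each other.

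From WT-MPP to BM HSC, 3 of the 10 genes were higher, Esam by 3.82, Sox18 by 2.91 and Tie1 by 2.31, against 14.49% of all genes higher. One gene was lower, Emcn at -1.01, against 2.671% of all genes lower. The Emcn value lay at the limit of 1, and was -0.99 without the cell of highest TPM in each population and -0.92 without cells under 3000 genes. When mean TPM was taken before the logarithm, Esam differed by only 0.997 and Tie1 by 1.29, Sox18 by 6.13 and Tek by 1.03, so Esam fell short of the limit and Tek passed it. Kdr passed it as well, with a mean of 2.55 TPM in BM HSC, where 2 cells held it, and 0.0035 in WT-MPP. The median of the 10 genes was 0.44, that of the 8 that passed the filter 0.73, and that of all genes that passed 0.22.

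From BM HSC to FL HSC, 4 of the 10 genes were higher and 0 lower, against 25.56% higher and 5.444% lower among all genes. They were Sox18 by 2.79, Emcn by 2.58, Esam by 1.84 and Tek by 1.14, and Tie1 differed by -0.08. Esam and Tek came below 1, at 0.94 and 0.63, when mean TPM was taken before the logarithm, and Tek was 0.44 with a pseudocount of 10. With mean TPM first, Cdh5 (means of 3.28 TPM in FL HSC and 0 in BM HSC) and Sox17 (1.55 and 0, from 1 cell) became higher by 1 or more. Kdr (0.0273 and 2.55) became lower by 1 or more. Eng and Pecam1 turned direction with mean TPM first, from 0.40 to -0.33 and from 0.49 to -0.89. Most proliferation genes were also higher in the fetal cells, and the part of cell cycle or of the larger number of genes per cell in these differences was not tested. The median of the 10 genes was 0.52 and that of the 8 that passed the filter 0.85, beside 0.31 for all genes that passed.

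The CD11b+CD48+SK cells were lower than each natural population in the genes that differed. Against WT-MPP, 4 of 10 were lower, Emcn at -3.42, Esam at -2.16, Tie1 at -1.32 and Eng at -1.25, while 5.011% of all genes were lower. No member was higher, beside 19.01% of all genes. Tie1 was -0.61 with a pseudocount of 10. The 2 populations had in common that Sox18 was absent, and Pecam1 differed by 0.51. With mean TPM taken first, Pecam1 turned to -0.88 and Tek, at -0.32 otherwise, was -1.67.

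Against BM HSC, 5 of 10 were lower, Esam at -5.98, Tie1 at -3.63, Sox18 at -2.97, Emcn at -2.41 and Eng at -2.15, and 11.79% of all genes were lower. Again 0 of the 10 were higher, beside 13.38% of all genes. With mean TPM taken first Tek was also lower, at -2.70 in place of -0.90. So was Kdr, at 0 TPM in every CD11b+CD48+SK cell against a mean of 2.55 in BM HSC. The median of the 10 genes was -1.52, that of the 8 that passed the filter -2.28, and that of all genes that passed -0.001.

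Against FL HSC the count of lower genes was 6 of 10, beside 20.94% of all genes, and 0 were higher, beside 4.016%. Esam differed by -7.82, Sox18 by -5.76, Emcn by -4.99, Tie1 by -3.55, Eng by -2.55 and Tek by -2.04. Tek was -0.83 with a pseudocount of 10. Pecam1 differed by -0.18 here and by 0.31 against BM HSC, so it was within 1 in every comparison. Its direction was not stable, since with mean TPM taken first these values were 0.11 and -0.79. Cdh5 and Sox17, at 0 TPM in every CD11b+CD48+SK cell against means of 3.28 and 1.55 in FL HSC, were then also lower by 1 or more. Without the 20 FL HSC that held 2 or more endothelial markers, Tek differed by -1.99.

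**Figure D3:**
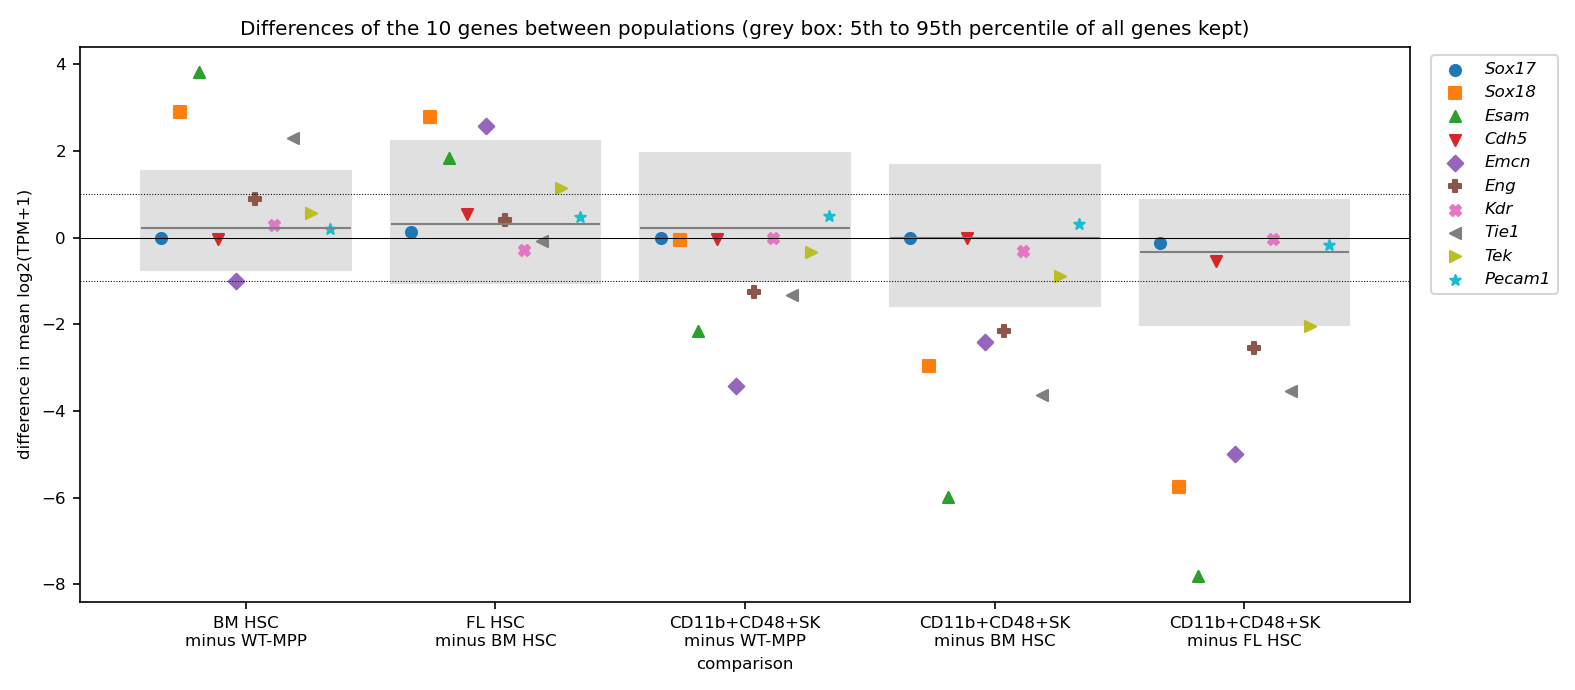
Difference in mean log2(TPM+1) over cells for each of the 10 genes in the 5 comparisons, first population minus second. The grey box spans the 5th to 95th percentile of the 10856 genes kept, the grey line is their median and dotted lines mark 1 and -1. Esam ran from 3.82 (BM HSC minus WT-MPP) to -7.82 (CD11b+CD48+SK minus FL HSC), and Pecam1 stayed between -0.18 and 0.51.

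The number of the 10 genes present together in a cell set the populations in the order FL HSC, BM HSC, WT-MPP and CD11b+CD48+SK. FL HSC held 3 to 8 with a median of 5.5, and BM HSC held 1 to 7 with a median of 4. WT-MPP held 0 to 4 with a median of 3, and CD11b+CD48+SK cells 0 to 3 with a median of 2. At least 3 were present in all 56 FL HSC, in 32 of 36 BM HSC, in 30 of 41 WT-MPP and in 4 of 47 CD11b+CD48+SK cells. At least 5 were present in 44 FL HSC and 14 BM HSC and in no cell of the other 2 populations. The ranges of neighbouring populations overlapped.

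The number of all genes per cell moved with this count in BM HSC, with a Spearman rho of 0.53 over 36 cells. The rho was 0.04 in WT-MPP (41 cells), 0.23 in FL HSC (56 cells) and 0.24 in CD11b+CD48+SK cells (47 cells). CD11b+CD48+SK cells had more genes per cell than WT-MPP and fewer of the 10. The mean log2 level of the 10 genes had a rho with the mean level of proliferation genes of 0.19, 0.30, -0.06 and -0.14 in BM HSC, WT-MPP, FL HSC and CD11b+CD48+SK cells. Cells of 1 population share sort and preparation, and these values are given as description without a p-value.

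**Figure D4:**
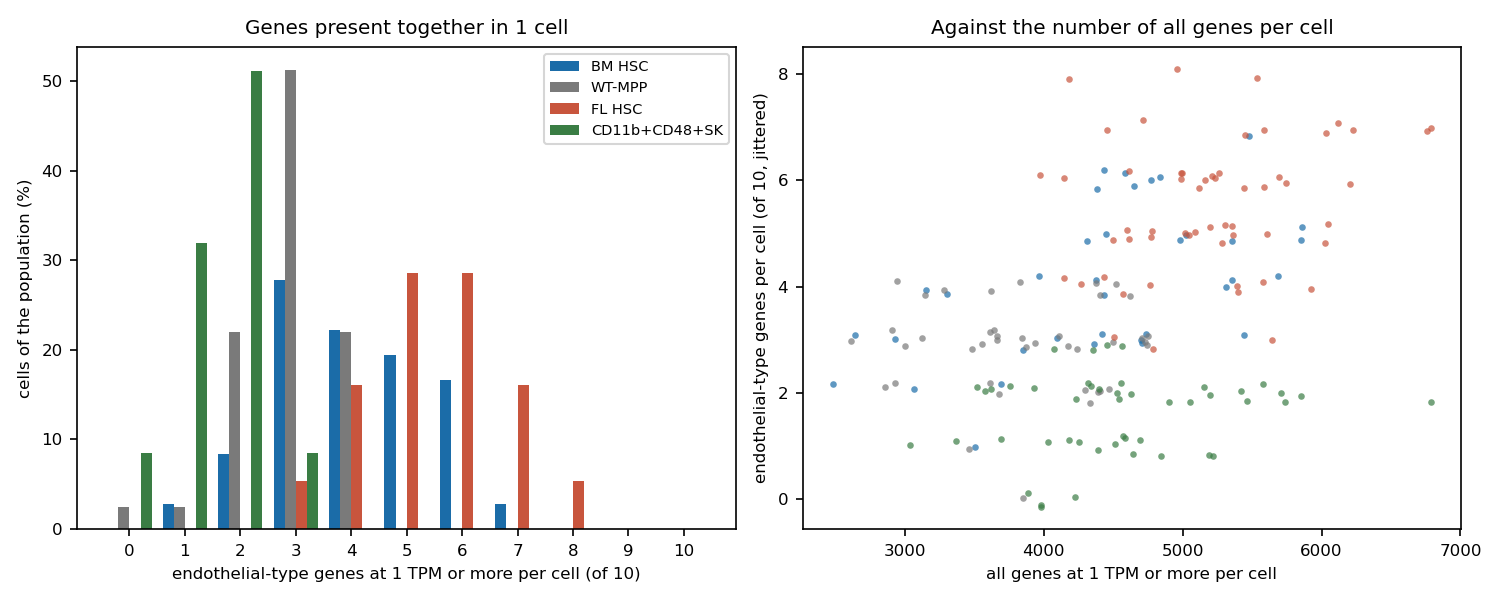
Left, percent of the cells of each population by the number of the 10 genes at 1 TPM or more. Right, that number against the number of all genes at 1 TPM or more in each cell, with points jittered vertically. FL HSC held 3 to 8 of the genes and CD11b+CD48+SK cells 0 to 3, although the medians of all genes were 5206.5 and 4514.

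Which genes occurred together also differed. In CD11b+CD48+SK cells Eng with Pecam1 and no other member was the most common set, in 18 of 47 cells (38.3%), and 8 more held Eng alone. WT-MPP had Emcn, Eng and Pecam1 in 7 of 41 cells and Esam, Emcn and Eng in 7 others. In BM HSC the most common set was Esam, Eng and Tie1, in 6 of 36 cells (16.7%), and the next was Sox18, Esam, Emcn, Eng, Tie1 and Pecam1 in 4. In FL HSC the largest common set joined Sox18, Esam, Emcn, Eng, Tie1, Tek and Pecam1, in 8 of 56 cells (14.3%). The 36 BM HSC showed 24 different sets, 18 of them in 1 cell each, so no set was typical of the population.

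Within each population the median rho between pairs of the genes was low. In BM HSC the 21 pairs of genes present in at least 10% of cells had a median rho of 0.15 over 36 cells, from -0.32 for Emcn with Tek to 0.48 for Esam with Eng. Esam also had a rho of 0.38 with Pecam1 and 0.31 with Tie1. Sox18 with Pecam1 had 0.36 and Eng with Tie1 0.33. Of the 21 pairs 15 were above 0 and 5 above 0.3. In FL HSC the 28 pairs had a median rho of 0.10 over 56 cells, and the highest was 0.28, for Tie1 with Pecam1. The medians were 0.04 over 10 pairs in WT-MPP and 0.04 over 3 pairs in CD11b+CD48+SK cells.

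The lowest rho in FL HSC was -0.44, for Sox18 with Emcn. Both genes were present in 31 of the 56 cells, Sox18 alone in 16 and Emcn alone in 9, and no FL HSC lacked both. The product of their shares would place both in 33.6 cells. In BM HSC the same pair had a rho of 0.27, with both in 9 of 36 cells, Sox18 alone in 8, Emcn alone in 5 and neither in 14. The difference between the ages was not tested.

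**Figure D5:**
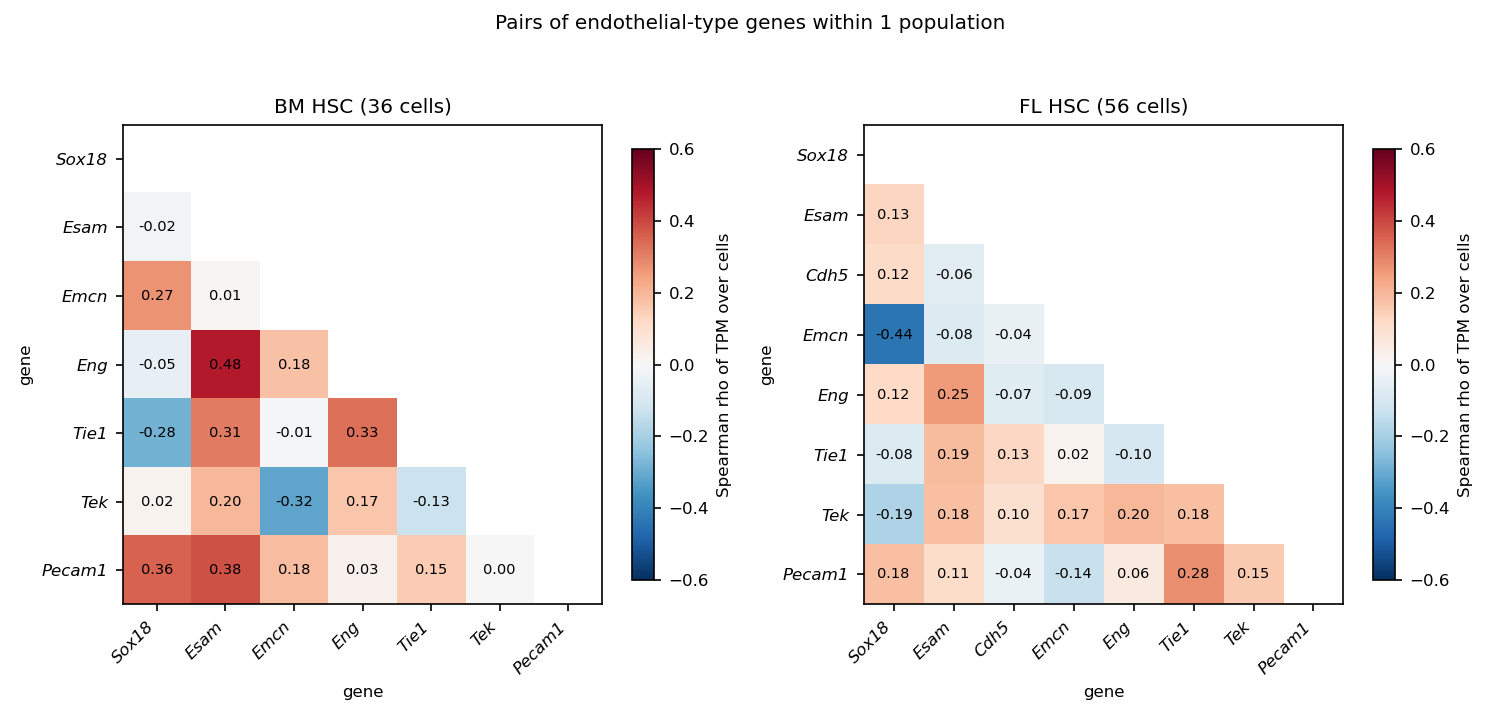
Spearman rho of TPM between each pair of genes present in at least 10% of cells, over 36 BM HSC (left) and 56 FL HSC (right). Colour runs from blue (-0.6) to red (0.6). Esam with Eng in BM HSC reached 0.48 and Sox18 with Emcn in FL HSC -0.44, while the medians over pairs were 0.15 and 0.10.

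Other genes of the same pathways were taken from lists, counted by the same difference of 1 among those that passed the filter. Of the transcription factors that act with SoxF and ETS proteins in endothelium, 13 of 21 passed. BM HSC had 5 of the 13 higher than WT-MPP and 0 lower, beside 14.49% and 2.671% of all genes, with Klf2, a shear-stress responsive factor, at 2.35, Gata2 at 1.86, Mef2c at 1.33 and the ETS factor Fli1 at 1.28. CD11b+CD48+SK cells had 4 lower than BM HSC and 0 higher, beside 11.79% and 13.38% of all genes, among them Gata2 at -2.94, Klf2 at -2.66, Fli1 at -1.59 and Ets2 at -1.07. The medians of the list were 0.21 and -0.66 in these comparisons. Unlike Sox18 and Esam, which were higher in FL HSC than in BM HSC, 4 of the 13 were lower there and 1 was higher, beside 5.444% and 25.56% of all genes. Gata2 was present in 36 of 36 BM HSC, 38 of 41 WT-MPP, 54 of 56 FL HSC and 40 of 47 CD11b+CD48+SK cells, so Gata2 was seen in many cells without Sox18. Klf2 was less frequent there, in 5 WT-MPP and 4 CD11b+CD48+SK cells, and was present in 17 BM HSC and 19 FL HSC.

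The ligands and partners of the receptors went in different directions. Angpt1, the ligand that activates TIE2, was present in 35 of 36 BM HSC, 40 of 41 WT-MPP, 45 of 56 FL HSC and 46 of 47 CD11b+CD48+SK cells, while Tek was present in 9, 4, 29 and 2. Its difference was 1.27 between BM HSC and WT-MPP and -1.68 for CD11b+CD48+SK cells against BM HSC, and it was -3.17 between FL HSC and BM HSC, where Tek was higher. Dok2, an adaptor that binds activated TIE2, differed by 0.90, 1.03 and 4.90 in these, and so was higher in FL HSC, like Tek, with all 56 cells holding it. They were the 2 genes of 6 in the angiopoietin list that passed. In the VEGF list 5 of 11 passed, 0 differed by 1 between BM HSC and WT-MPP, and Vegfb alone did for CD11b+CD48+SK cells against BM HSC, at 1.26. Of all genes, 14.49% and 13.38% were higher in these comparisons and 2.671% and 11.79% lower.

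Of the endoglin and BMP9 pathway 12 of 15 genes passed. Id1, a target of BMP signalling, and the co-receptor Tgfbr3 were higher in BM HSC than in WT-MPP, at 1.18 and 1.05, and 0 genes were lower. These 2 of 12 stand beside 14.49% of all genes. CD11b+CD48+SK cells had Id1 at -1.27, Tgfbr3 at -1.21 and Id2 at -1.09 against BM HSC, and the ligand Tgfb1 at 1.27, so 3 of 12 were lower and 1 higher, beside 11.79% and 13.38% of all genes. Id1 was present in 10 of 36 BM HSC, 2 of 41 WT-MPP, 33 of 56 FL HSC and 0 of 47 CD11b+CD48+SK cells. Acvrl1, the ALK1 receptor with which endoglin acts in endothelium, was seen in 0 BM HSC, 0 WT-MPP, 3 FL HSC and 2 CD11b+CD48+SK cells, whereas Eng was present in most cells.

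Junction and adhesion partners of Esam, Cdh5 and Pecam1 went both ways, with 11 of 15 passing. F11r, which encodes the junctional protein JAM-A, was 2.23 higher in BM HSC than in WT-MPP and differed by -4.94 for CD11b+CD48+SK cells against BM HSC. Ctnnb1 (beta-catenin) showed 1.41 and -1.72. Cd34, the sialomucin shared by endothelium and progenitors, ran against them at -3.83 and 4.32, and Icam2 was 2.09 higher in CD11b+CD48+SK cells than in BM HSC. In all, 3 of the 11 were higher and 1 lower in BM HSC than in WT-MPP, beside 14.49% and 2.671% of all genes. In CD11b+CD48+SK cells 2 were higher and 4 lower than in BM HSC, beside 13.38% and 11.79%.

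Genes known for the adult stem cell state differed in the direction of Sox18, Esam and Tie1 in the comparisons of BM HSC with WT-MPP and CD11b+CD48+SK cells. All 17 of that list passed, 10 were higher and 1 lower in BM HSC than in WT-MPP (median 1.29), beside 14.49% and 2.671% of all genes, with Mllt3 at 3.55 and Slamf1 at 3.47. For CD11b+CD48+SK cells against BM HSC, 15 were lower and 1 higher (median -3.81), beside 11.79% and 13.38%, with Pdzk1ip1 at -7.78 and Mllt3 at -5.44. From BM HSC to FL HSC 5 were higher and 4 lower (median -0.41), beside 25.56% and 5.444% of all genes, whereas Sox18 and Esam were higher there. Of 15 proliferation genes, 13 were higher and 0 lower in CD11b+CD48+SK cells than in BM HSC (median 1.53, beside 13.38% of all genes higher), where Sox18, Esam and Tie1 were lower. In FL HSC 14 of 15 were higher than in BM HSC (median 1.83, beside 25.56%), and in BM HSC 6 of 15 were higher than in WT-MPP (median 0.77, beside 14.49%), with 0 lower in either, and so in the direction of Sox18 and Esam. Of 6 housekeeping genes 0 differed by 1 between BM HSC and WT-MPP, beside 14.49% of all genes higher and 2.671% lower. In CD11b+CD48+SK cells 1 was higher than in BM HSC, Gapdh at 1.17, beside 13.38%. Rplp0 was higher in these cells than in WT-MPP, at 1.08, beside 19.01%. Against FL HSC 3 of the 6 were higher, B2m at 1.43, Gapdh at 1.09 and Ppia at 1.04, beside 4.016%. From BM HSC to FL HSC B2m was lower, at -1.71, beside 5.444%. No other housekeeping gene differed by 1 in these comparisons.

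Markers of other cells that can carry these genes were also summed in each cell. The platelet and megakaryocyte markers had medians of 237 TPM in BM HSC (0 to 1250) and 3.41 in WT-MPP (0 to 1003). The medians were 169 in FL HSC (0 to 1833) and 1.92 in CD11b+CD48+SK cells (0 to 390). Gp9 alone had medians of 149, 0, 131 and 0 TPM in that order. Of the 5 that passed the filter, Gp9 and Itga2b were higher in BM HSC than in WT-MPP, at 3.12 and 1.81. Pf4 differed by -0.46, and 0 were lower by 1, beside 14.49% of all genes higher and 2.671% lower. From BM HSC to FL HSC 0 were higher and Itga2b was lower, at -1.44, beside 25.56% and 5.444%. Erythroid markers had a median of 1004 TPM in FL HSC (31.7 to 4955), with 1.15 in BM HSC (0 to 2854) and 0 in the other 2. Single cells of those reached 1954 TPM in WT-MPP and 1333 in CD11b+CD48+SK cells. Hbb-b1 alone had a median of 957 TPM in FL HSC, and Epor was present in 23 of the 56. Hba-a1 and Klf1 were present in only 1 and 2 FL HSC. Macrophage markers had medians of 40.1 TPM in FL HSC (0 to 2067) and 0 elsewhere. Single cells elsewhere reached 980 TPM in BM HSC, 4458 in WT-MPP and 829 in CD11b+CD48+SK cells. A cell held at most 7 of the 9 markers in FL HSC, 5 in BM HSC, 6 in WT-MPP and 4 in CD11b+CD48+SK cells. Cd68 was present in 29 of 56 FL HSC, 7 of 36 BM HSC, 10 of 41 WT-MPP and 8 of 47 CD11b+CD48+SK cells. Csf1r was present in 5 FL HSC alone. C1qc was present in 6, 3, 6 and 7 cells in the order of Cd68, C1qb in 3, 2, 2 and 5, and C1qa in 2, 2, 4 and 3. No C1q gene was thus most frequent in FL HSC. Hepatocyte markers had a median of 15.2 TPM in FL HSC and at most 0.142 elsewhere, but single markers differed in direction. Dlk1 was present in 29 of 56 FL HSC, 2 of 36 BM HSC and no other cell. Alb and Apoa2 were present in 1 and 6 FL HSC alone. Apoa1 was present in 7 FL HSC, 5 BM HSC, 2 WT-MPP and 0 CD11b+CD48+SK cells. Afp was less frequent in FL HSC, in 7 of 56, than in BM HSC (9 of 36), WT-MPP (8 of 41) and CD11b+CD48+SK cells (13 of 47). Stromal markers had a median of 0 in all 4. Their part in the levels of the 10 genes was not tested.

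The genes most like the group were ranked by Spearman rho with its mean log2 level, among genes outside it. Over all 180 cells these included Apoe at 0.67, Pisd-ps3 at 0.66, Mllt3 at 0.65 and Gimap6 at 0.65, and the rho there reflects the differences between populations. Apoe was present in 35 of 36 BM HSC, 35 of 41 WT-MPP, 56 of 56 FL HSC and 35 of 47 CD11b+CD48+SK cells, with mean TPM of 1577, 382, 1832 and 34.96. Within BM HSC the highest rho was that of Stat5b at 0.72 (36 cells), and within FL HSC that of Ampd3 at 0.51 (56 cells). The 10 nearest genes of the 3 rankings had 0 in common between any 2. By single gene over 180 cells, Sox18 was nearest to Pisd-ps3 at 0.73, Gm5506 at 0.69 and Mfap2 at 0.69. Tek was nearest to Gm10653 at 0.44, Pisd-ps3 at 0.43 and Rps19-ps3 at 0.42. Esam was nearest to Apoe at 0.64, and Emcn and Tie1 to Ndn at 0.47 and 0.48. Eng was nearest to Trim47 at 0.49, and Pecam1 to Gm3258 at only 0.27. Since Pisd-ps3 was present in FL HSC alone, its rho restates FL HSC against the other cells, and its reads may be shared with a closely related gene. Mfap2 was present in 49 of 56 FL HSC, 7 BM HSC, 2 WT-MPP and 1 CD11b+CD48+SK cell. Gm5506 had a mean of 588 TPM in FL HSC against 56.8, 49.1 and 50.3 in BM HSC, WT-MPP and CD11b+CD48+SK cells. Rps19-ps3 was present in all 56 FL HSC, 9 BM HSC, 7 WT-MPP and 11 CD11b+CD48+SK cells, and Gm10653 in 13, 1, 0 and 0.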

How the data were processed

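Single cells were amplified with a whole-transcriptome kit and sequenced by the authors. HISAT2 2.1.0, StringTie 1.3.4, SAMtools 0.1.19, bcl2fastq and build mm10 are named in the submitters' processing notes, and the annotation is not given in the sources used here. The deposited values are TPM per gene and cell, which the authors scaled to 1e+06 per cell, so read depth is unknown and genes present per cell are given instead. The table held 181 columns of cells, of which 1 could not be tied to a sample and was not used. No doublet caller was run, since each library came from 1 sorted cell.

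Python 3.11.15, numpy 2.4.6, pandas 2.3.3, scipy 1.17.1 and matplotlib 3.10.9 were used. Levels were log2(TPM+1) (pseudocount 1), which understates changes of low genes. Presence was 1 TPM or more. The filter was presence in 10% of the cells of a population. A difference of means of 1 counted as higher or lower. Without animals named for the cells, no test between populations was made. Shares have 95% exact Clopper-Pearson intervals, and 3 cells were taken as the limit a count of 0 allows. Both cover counting only.

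The members, the gene and marker lists and their tests were chosen with earlier results of these data known. All 10 members were named. Of each pathway list, up to 4 genes with the largest difference between BM HSC and WT-MPP and up to 4 for CD11b+CD48+SK cells against BM HSC were taken, and the nearest genes were the 3 per member and 10 per group mean of highest rho. Some genes under this rule are not reported here. Ecscr, Plvap, Cldn5, Sox7, Flt4, Stab2, Aplnr, Ptprb, Lyve1, Nos3, Acvrl1 and the presence counts of Gata2 and Id1 were added after their values were seen. Promoter sequences are RefSeq's on GRCm38.p6, the build called mm10, cut at the GENCODE M21 gene start. The code was checked on simulated data. Alternatives were other pseudocounts, mean before logarithm, scaling, presence thresholds and leaving out cells.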

Additional observations from a re-analysis of the deposited data

How the results depend on the processing

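No paired analysis was possible because the cell numbers in the labels only name cells and no test between populations was made. Each alternative changed 1 choice, and the differences between populations have no replicate behind them. From WT-MPP to BM HSC, members higher by 1 or more numbered 5 with a pseudocount of 0.1, and the 1 lower member (Emcn) became 0 with a pseudocount of 10, without the cell of highest TPM in each population, and without cells under 3000 genes, which removed 3 BM HSC and 5 WT-MPP. The median of the members that passed the filter was -1.73 instead of -0.79 for CD11b+CD48+SK cells against WT-MPP with log2 of the mean TPM plus 1. For CD11b+CD48+SK cells against FL HSC it was -4.71 with a pseudocount of 0.1 and -1.70 with one of 10, instead of -3.05. The median share of cells per member rose to 59.7% in BM HSC and 40.2% in WT-MPP when any TPM above 0 counted as present. At 10 TPM or more, CD11b+CD48+SK cells held a median of 1 member. The median correlation of pairs in WT-MPP was -0.084 with Pearson's r in place of 0.039. The other 172 values of these summaries stayed within their limits. Of the summaries, the WT-MPP correlation alone changed sign, and among single genes Pecam1 did so in all 5 comparisons with mean TPM taken first, and Eng and Tie1 from BM HSC to FL HSC, where Tie1 ran from -0.69 to 0.12 over the alternatives. The cause of these shifts was not tested. Leaving out FL HSC with 2 or more endothelial markers other than Ecscr (5 cells) was added after seeing the data. The number of low values between 0 and 1 TPM, higher in BM HSC and WT-MPP, limits what presence near 1 TPM can show.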
